A study of Homo sapiens with 9 samples.

Results

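The integrins, focal adhesion proteins and actomyosin proteins through which a cell grips its surroundings were followed as 56 listed gene symbols, FLNA and COTL1 included, among 24462 symbols counted in U-373MG cells. They comprise 8 integrin alpha subunits, 5 integrin beta subunits, 9 adhesion adaptors and kinases, 3 actins, 4 actin crosslinkers, 6 chains of non-muscle myosin II, 4 tropomyosins, 10 other actin binding or remodelling proteins, and 7 small GTPases and ROCK kinases. All 56 symbols were found in the deposited counts, each on 1 entry.

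U-373MG is an established human line labelled as glioblastoma and astrocytoma. The 9 libraries form 3 groups of 3: cells given the synthetic peptide NnK-1, cells given the synthetic peptide CBRV1-10493, each at 200 nM and for 48 h, and untreated control cells that served for both peptides. Both peptides were derived from jellyfish and are described as resembling ShK, a sea anemone toxin known as a blocker of voltage-gated potassium channels. The whole study rests on 1 cell line. The labels call the libraries biological replicates but name no separate culture for each library. The p-values therefore speak of the spread between these libraries alone, part of which may be technical. For the control cells no time in culture is given in the labels.

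Integrins are pairs of an alpha and a beta subunit that span the membrane and bind the matrix outside the cell. Inside, talin, vinculin, paxillin and the kinases FAK, Src and ILK assemble on their tails and link them to actin filaments, which alpha-actinin and filamin crosslink and non-muscle myosin II pulls on. RhoA and the ROCK kinases raise myosin activity, Rac1 and Cdc42 drive the assembly of new filaments at the cell edge, and glioma cells use this machinery to spread and to invade.

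Many genes of actin and its partners are known targets of SRF, a transcription factor that binds the CArG box and is sensitive to the pool of free actin. The promoter table of RefSeq (GRCh38.p14, 250 bases before to 50 bases after each listed start) held 46 of the 56 genes, some with several starts. A CArG box, searched on both strands, lay in the promoters of 6 of them, ROCK2, ACTN1, ACTG1, CNN2, TPM4 and FLNA. That is 6 of 80 promoters of these genes (7.5%), against 454 of 35116 promoters in the whole table (1.29%). The 6 sites are printed with 10 bases on each side, since FLNA and ACTG1 are among the genes described at length; each line reads 5′ to 3′ on the gene's own strand, with the box in capitals.
ROCK2: aaatgtacttCCTTAAATGGgtttactggg
ACTN1: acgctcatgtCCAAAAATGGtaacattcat
ACTG1: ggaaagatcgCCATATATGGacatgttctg
CNN2: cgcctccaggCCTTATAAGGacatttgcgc
TPM4: aatcctaggtCCAAATAAGGcgagggctgc
FLNA: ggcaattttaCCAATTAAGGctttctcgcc
The ROCK2 window is chr2:11345491-11345520 (minus strand), that of ACTN1 chr14:68977718-68977747 (minus) and that of ACTG1 chr17:81512874-81512903 (minus). The CNN2 window is chr19:1026509-1026538 (plus), that of TPM4 chr19:16067355-16067384 (plus) and that of FLNA chrX:154374709-154374738 (minus). In both FLNA and ACTG1 the box begins 94 bases before the gene's start. In CNN2 it begins 89 bases before, in ROCK2 73, in ACTN1 171 and in TPM4 173. ROCK2, ACTN1 and TPM4 have other listed starts, whose promoters held no box. Which start these cells use was not tested. A match describes letters, not binding.

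Levels are given as CPM, the count over the library total times 1000000, and the totals ranged from 11203094 to 13491075 counts. QuantSeq reads about 1 fragment near the 3′ end of each transcript, so CPM is not divided by transcript length, and levels of different genes are set side by side on that scale only. Fold changes come from a single edgeR quasi-likelihood fit of 13676 genes in all 9 libraries with TMM scaling, so they need not equal the ratio of the printed means. NnK-1 replicate 2 lay apart from the other 8 libraries on the first principal component of log2 CPM (19.7% of the variance) and CBRV1-10493 replicate 1 on the second (14.7%). The astrocyte and glioma markers listed for the check summed to 7422 to 10939.8 CPM in the NnK-1 libraries, 9031 to 10649 in the CBRV1-10493 libraries and 9008 to 10200.0 in the control libraries. Of these 11 markers VIM (5661 CPM) and NES (1424 CPM) were the highest, GFAP stood at 23.4 CPM, and ALDH1L1 and OLIG2 had no read. Of the markers of other cells, those of neurons summed to 169.6 to 211 CPM over all libraries, with none of the 6 at 0; MAP2 averaged 173 CPM and SYT1, the next, 10.4. The remaining lists were lower: muscle markers summed to 20.2 to 33.1 CPM over all libraries with DES at 0, endothelial markers to 0.893 to 3.79, blood cell markers to 0.877 to 5.36 with CD3E at 0, and epithelial markers to 7.77 to 10.8 with EPCAM and ESRP1 at 0. In bulk RNA, fewer cells of a type and less RNA per cell cannot be told apart.

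Together the 56 genes took 3.79% to 4.04% of all counts in a library, and 6 of them stood above 1000 CPM. ACTG1, which encodes cytoplasmic gamma-actin, averaged 13426 CPM over the 9 libraries and was the most abundant of all 24462 symbols. ACTB, cytoplasmic beta-actin, averaged 1769.7 CPM and ranked 37. ACTA2, the smooth muscle alpha-actin, averaged 10.1 CPM. The non-muscle crosslinker ACTN4 averaged 5896 CPM (rank 5 of all symbols), its relative ACTN1 763 and filamin A (FLNA) 770.0, while the muscle filamin FLNC averaged 0.637 CPM. Among the remaining actin partners the filament-severing cofilin (CFL1) led with 2244 CPM, followed by caldesmon (CALD1) with 1156.

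**Figure D1:**
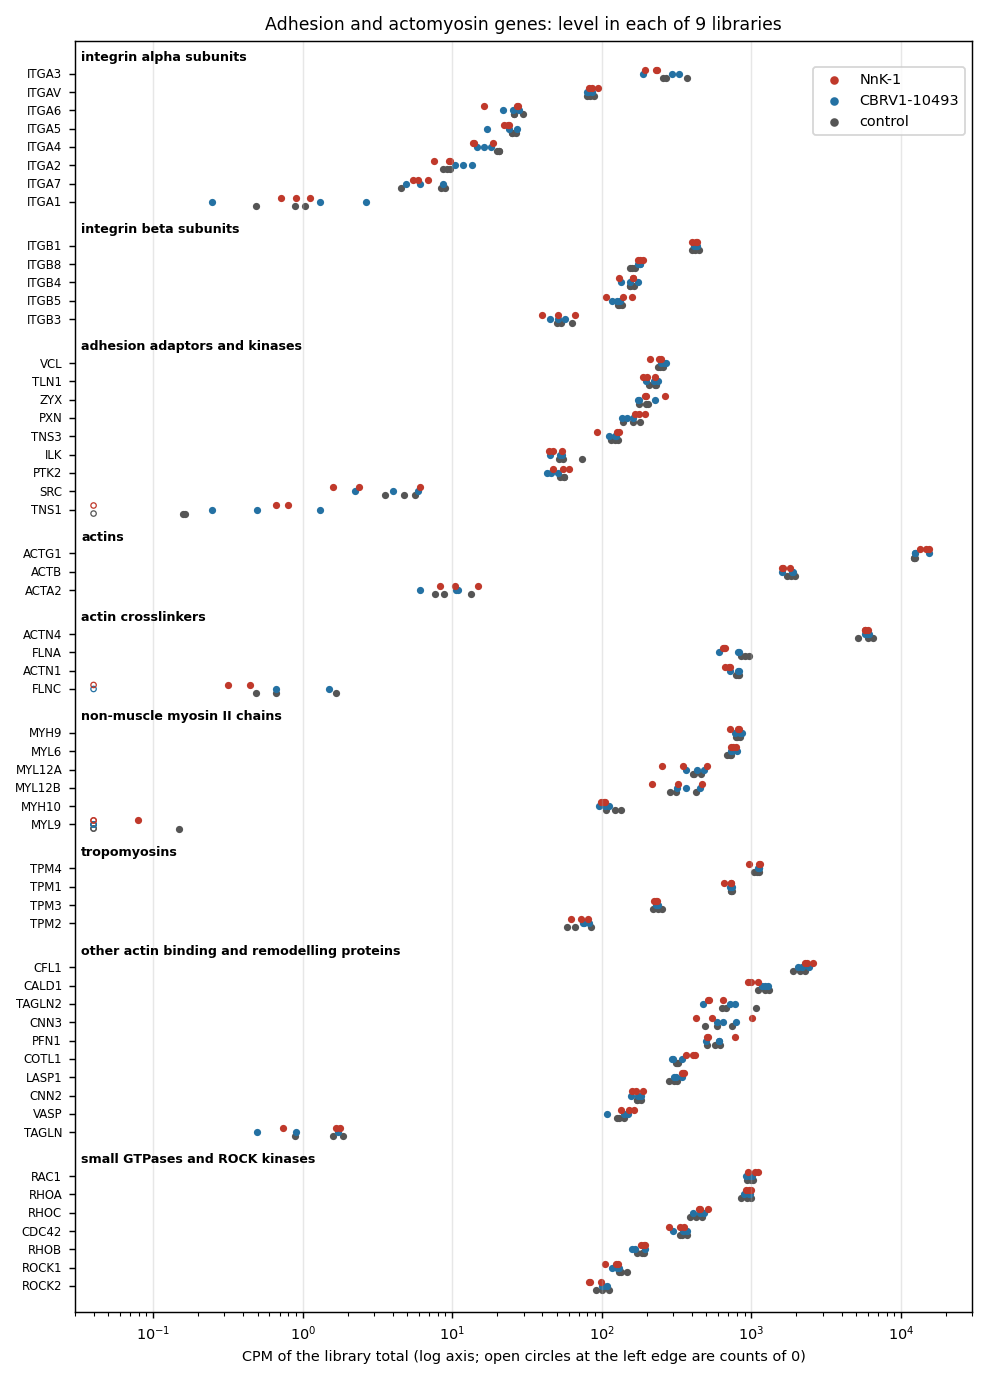
Level of each of the 56 genes in each of the 9 libraries, in CPM on a log axis, grouped by role; open circles at the left edge are counts of 0. ACTG1 and ACTN4 lie at the right, and MYL9, TNS1 and FLNC at the left.

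Among the myosin genes the non-muscle chains were the abundant ones. The heavy chains MYH9 (IIA) and MYH10 (IIB) averaged 809 and 109 CPM, and the light chains MYL6, MYL12A and MYL12B 743, 408 and 353, while the smooth muscle heavy chain MYH11, one of the muscle markers above and not among the 56, averaged 9.11. The smooth muscle regulatory light chain MYL9 had 1 read in the NnK-1 libraries, 0 in the CBRV1-10493 libraries, which allows up to 0.0824 CPM there, and 2 in the control libraries; the limit covers counting error only. The tropomyosins, which coat and stabilise filaments, ran in the order TPM4, TPM1, TPM3 and TPM2 at 1093, 722, 233 and 72.9 CPM. The smooth muscle marker transgelin (TAGLN) averaged 1.30 CPM beside 669 for its non-muscle relative TAGLN2.

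Among the integrins the common partner ITGB1 was the highest, at 423 CPM. The other beta subunits followed at 173 CPM for ITGB8, which pairs with alpha V, 155 for ITGB4, the laminin receptor chain of hemidesmosomes, 130.1 for ITGB5 and 52.7 for ITGB3. Of the alpha subunits the laminin-binding ITGA3 led with 263 CPM and ITGAV, the alpha V chain of vitronectin receptors, followed with 84.4. The laminin receptor chain ITGA6, the fibronectin receptor chains ITGA5 and ITGA4, and the collagen receptor chain ITGA2 averaged 25.3, 23.9, 17.4 and 10.02 CPM. ITGA7 and the collagen receptor chain ITGA1 were lowest at 6.65 and 1.04.

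At the adhesion plaque, vinculin (VCL), talin 1 (TLN1), zyxin (ZYX), paxillin (PXN) and tensin 3 (TNS3) all lay between 119 and 246 CPM. The kinases were lower, with ILK at 53.2 CPM, PTK2, which encodes FAK, at 51.8 and SRC at 4.02. Tensin 1 (TNS1) had 17 reads over the NnK-1 libraries, 25 over the CBRV1-10493 libraries and 4 over the control libraries. Of the regulators, RAC1 averaged 996 CPM, RHOA 945, RHOC 447, CDC42 338 and RHOB 182, and the kinases ROCK1 and ROCK2 127 and 97.7.

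For several of these genes reads may be shared with a neighbour. In the GENCODE 29 annotation (GRCh38, used for neighbours only), 11 of the 56 genes overlap another counted gene in exons, and the sources used here do not say whether strand was used in counting. CAPN12, a calpain gene that shares exon bases with ACTN4 on the opposite strand, held 601959 reads over the 9 libraries, 92.1% of the 653551 counted for ACTN4, and in single libraries between 89.5% and 93.9%. ACTA2-AS1, antisense to ACTA2, held 1112 reads against 1118 for ACTA2; the counts were equal in 5 libraries and never differed by more than 3. AP3M1, opposite VCL, held 26.0% as many reads as VCL. Reads from either partner of these pairs cannot be told apart, so the levels of ACTN4, ACTA2 and VCL are uncertain to that extent. The scarce genes ITGA1 (1.04 CPM) and TAGLN (1.30 CPM) share exon bases with genes counted far higher, ITGA1 with PELO on the same strand (475 bases, 26.6 CPM) and TAGLN with PCSK7 on the opposite strand (442 bases, 25.7 CPM), so their levels are uncertain as well. In the other 6 pairs the longest shared stretch was 26 to 206 bases. Of the 19 genes with pseudogenes of the same name in RefSeq, 6 had a counted one, and the counted pseudogenes of ACTG1 summed to 12.3 CPM. Most named pseudogenes of the actins were not among the counted symbols: ACTG1 had 21 named and 3 counted, and ACTB 14 named and 0 counted. Reads that fell on uncounted pseudogenes cannot be seen here.

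**Figure D2:**
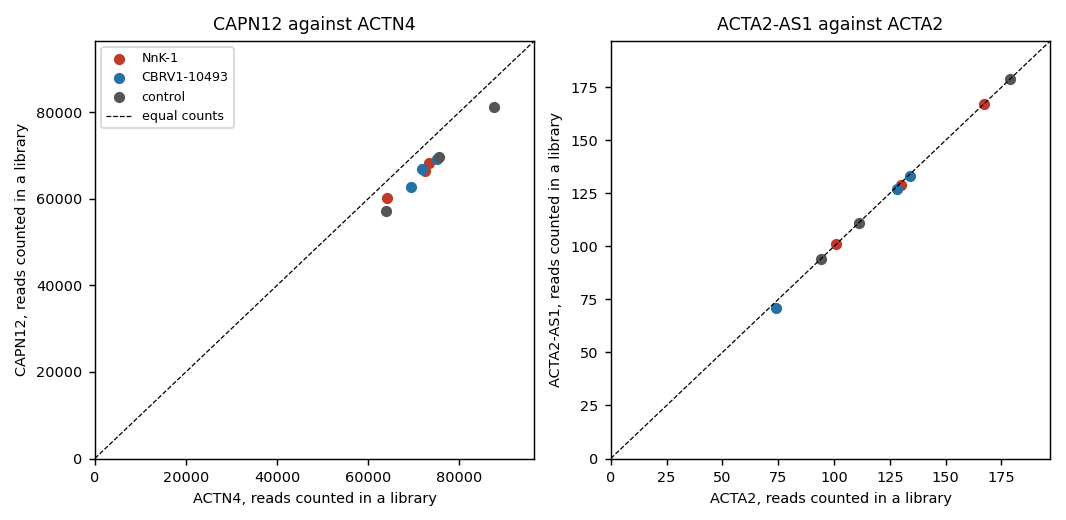
Reads counted in each library for CAPN12 against ACTN4 (left) and for ACTA2-AS1 against ACTA2 (right); the broken line marks equal counts and colours mark the groups. The points for ACTA2-AS1 lie on or within 3 reads of the line, and those for CAPN12 lie between 89.5% and 93.9% of ACTN4.

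The first comparison asked how 48 h with NnK-1 changed these genes relative to untreated cells. No gene of the 56, and no gene of the 13676 tested (0.0%), passed an adjusted p of 0.05, the smallest adjusted p being 0.499 in edgeR's quasi-likelihood test with Benjamini-Hochberg adjustment. Of the 56 genes, 53 were tested, and FLNC, TNS1 and MYL9 fell below the filter on low counts. At an unadjusted p under 0.05, 5 of the 53 were higher with NnK-1 (9.43%) and 5 lower (9.43%), where 3.76% of all tested genes were higher and 3.56% lower. The libraries of the groups did not overlap for 12 of the 53 (22.6%), 4 higher and 8 lower, against 13.0% of all tested genes. These are well-counted genes: 38 of the 56 averaged at least 100 CPM, against 2151 of the 13676, and the median 95% interval reached 0.22 to each side on the log2 scale against 0.39 over all tested genes. The part of depth in those shares was not tested. The 56 genes were chosen with earlier results of these data known. Shares over them, here and below, are therefore description and not a test. The median log2 fold change was -0.011 over the 53 genes and 0.0033 over all tested genes, with 25 of the 53 above 0.

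Among the crosslinkers FLNA gave the smallest p of the 53. FLNA stood at 648, 666 and 652 CPM in the NnK-1 libraries, 606, 816 and 825 in the CBRV1-10493 libraries and 959, 856 and 903 in the control libraries. The NnK-1 values were all below the control values and spanned a narrow range, and CBRV1-10493 replicate 1 lay below even those. For NnK-1 against control the log2 fold change of FLNA was -0.44, 95% interval -0.65 to -0.23, unadjusted p = 0.000311, adjusted p = 0.499. ACTN1 stood at 719, 663 and 706 CPM with NnK-1 and 787, 821 and 817 in control (log2 fold change -0.19, 95% interval -0.36 to -0.022, unadjusted p = 0.0289, adjusted p = 0.637). Its NnK-1 and control values did not overlap either. ACTN4, the most abundant crosslinker, averaged 5851 ± 173 CPM with NnK-1 and 5902 ± 661 in control (SD, n = 3 each), a log2 fold change of 0.014 (95% interval -0.15 to 0.18).

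Of the actins, ACTG1 stood at 14647, 15419 and 13434 CPM in the NnK-1 libraries, 15444, 12491 and 12482 in the CBRV1-10493 libraries and 12353, 12286 and 12275 in the control libraries. Every NnK-1 library lay above the control libraries, which spanned 12275 to 12353, and among the CBRV1-10493 libraries replicate 1 alone was as high as those with NnK-1. The log2 fold change of ACTG1 for NnK-1 against control was 0.26, 95% interval 0.092 to 0.44, unadjusted p = 0.00463, adjusted p = 0.578. ACTB averaged 1680.3 ± 117 CPM with NnK-1 and 1848 ± 114 in control (SD, n = 3 each; log2 fold change -0.11, 95% interval -0.29 to 0.062). The ratio of ACTG1 to ACTB was 8.65 ± 0.747 with NnK-1 (8.07 to 9.49), 7.67 ± 1.76 with CBRV1-10493 and 6.67 ± 0.392 in control (6.28 to 7.06; SD, n = 3 each). An exact two-sided permutation test of the log2 ratio for NnK-1 against control gave p = 0.1, the smallest that 3 against 3 libraries allow, and 0.6 after adjustment over the 18 ratio comparisons made.

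Of the 10 genes at an unadjusted p under 0.05 with NnK-1, 5 encode other proteins that bind or remodel actin filaments, 3 higher and 2 lower. COTL1, the coactosin-like protein that binds actin filaments, stood at 404, 423 and 365 CPM in the NnK-1 libraries, 342, 292 and 299 in the CBRV1-10493 libraries and 325, 313 and 319 in the control libraries. Its NnK-1 values all exceeded the control values, and the CBRV1-10493 values spanned the control range; the log2 fold change for NnK-1 against control was 0.34, 95% interval 0.15 to 0.54, unadjusted p = 0.00158, adjusted p = 0.499. LASP1, a LIM and SH3 domain protein of adhesions and the cell edge, stood at 356, 343 and 347 CPM with NnK-1 and 302, 283 and 319 in control (log2 fold change 0.24, 95% interval 0.051 to 0.42, unadjusted p = 0.0152, adjusted p = 0.62). The groups did not overlap. CFL1, which severs filaments, stood at 2338, 2588 and 2266 CPM with NnK-1 and 1909.7, 2127 and 2293 in control, with overlapping groups (log2 fold change 0.21, 95% interval 0.021 to 0.40, unadjusted p = 0.031, adjusted p = 0.644). It was 0.14 without NnK-1 replicate 2 (unadjusted p = 0.153) and 0.14 without control replicate 1 (unadjusted p = 0.15).

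Lower with NnK-1 in this class were TAGLN2 and CALD1. TAGLN2, the non-muscle transgelin, stood at 641, 516 and 523 CPM in the NnK-1 libraries, 471, 715 and 775 in the CBRV1-10493 libraries and 1065, 672 and 639.9 in the control libraries. Control replicate 1 was by far the highest library and the groups overlapped; the log2 fold change for NnK-1 against control was -0.47, 95% interval -0.82 to -0.13, unadjusted p = 0.0103, adjusted p = 0.582, and without control replicate 1 it was -0.21. CALD1, caldesmon, which restrains myosin on actin, stood at 948, 1000.2 and 1106 CPM with NnK-1 and 1306, 1240.1 and 1109 in control, without overlap, the nearest libraries standing at 1106 and 1109 (log2 fold change -0.23, 95% interval -0.41 to -0.053, unadjusted p = 0.0138, adjusted p = 0.609).

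Among the integrins 1 alpha and 1 beta subunit reached an unadjusted p under 0.05, in opposite directions. ITGA3 stood at 235, 195 and 231 CPM in the NnK-1 libraries, 188, 297 and 330.2 in the CBRV1-10493 libraries and 369, 269.9 and 256 in the control libraries. The NnK-1 and control values did not overlap, control replicate 1 was the highest, and CBRV1-10493 replicate 1 again lay below all NnK-1 libraries (log2 fold change for NnK-1 against control -0.41, 95% interval -0.74 to -0.081, unadjusted p = 0.0172, adjusted p = 0.62; -0.23 without control replicate 1). ITGB8, which with alpha V binds latent TGF-beta, stood at 181, 175 and 188 CPM in the NnK-1 libraries, 179, 181 and 176 in the CBRV1-10493 libraries and 155, 159.8 and 168 in the control libraries. Both peptides' libraries all lay above the control libraries (log2 fold change for NnK-1 against control 0.20, 95% interval 0.0097 to 0.39, unadjusted p = 0.0403, adjusted p = 0.673). The most abundant subunit, ITGB1, differed little, at 422 ± 17.0 CPM with NnK-1 and 424 ± 23.4 in control (SD, n = 3 each; log2 fold change 0.022, 95% interval -0.16 to 0.20).

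No adaptor, kinase, myosin chain, tropomyosin, small GTPase or ROCK gene reached an unadjusted p under 0.05 with NnK-1. The most abundant member of each class stood close to control: VCL had a log2 fold change of -0.051 (95% interval -0.24 to 0.14), MYH9 of -0.016 (95% interval -0.19 to 0.16), TPM4 of 0.020 (95% interval -0.16 to 0.20) and RAC1 of 0.10 (95% interval -0.080 to 0.28). Some other members differed more, with intervals that included 0. The scarce SRC had -0.45, ILK -0.28, ZYX 0.21, PXN 0.19, MYH10 -0.21 and ROCK1 -0.18. For MYH10 and ROCK1 the NnK-1 and control values did not overlap. The 4 tropomyosins lay between -0.035 and 0.073. Of the 10 genes at an unadjusted p under 0.05, FLNA, ACTG1 and COTL1 stayed there with each library left out in turn, and the other 7 did not. The share of all tested genes at that level that stayed was not counted, so these 3 have no background to be set against. Leaving out control replicate 1 lowered the number of genes at an unadjusted p under 0.05 to 5, where 5.31% of all tested genes were at that level in either direction; with all libraries it was 10, and 7.32% of all tested genes.

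**Figure D3:**
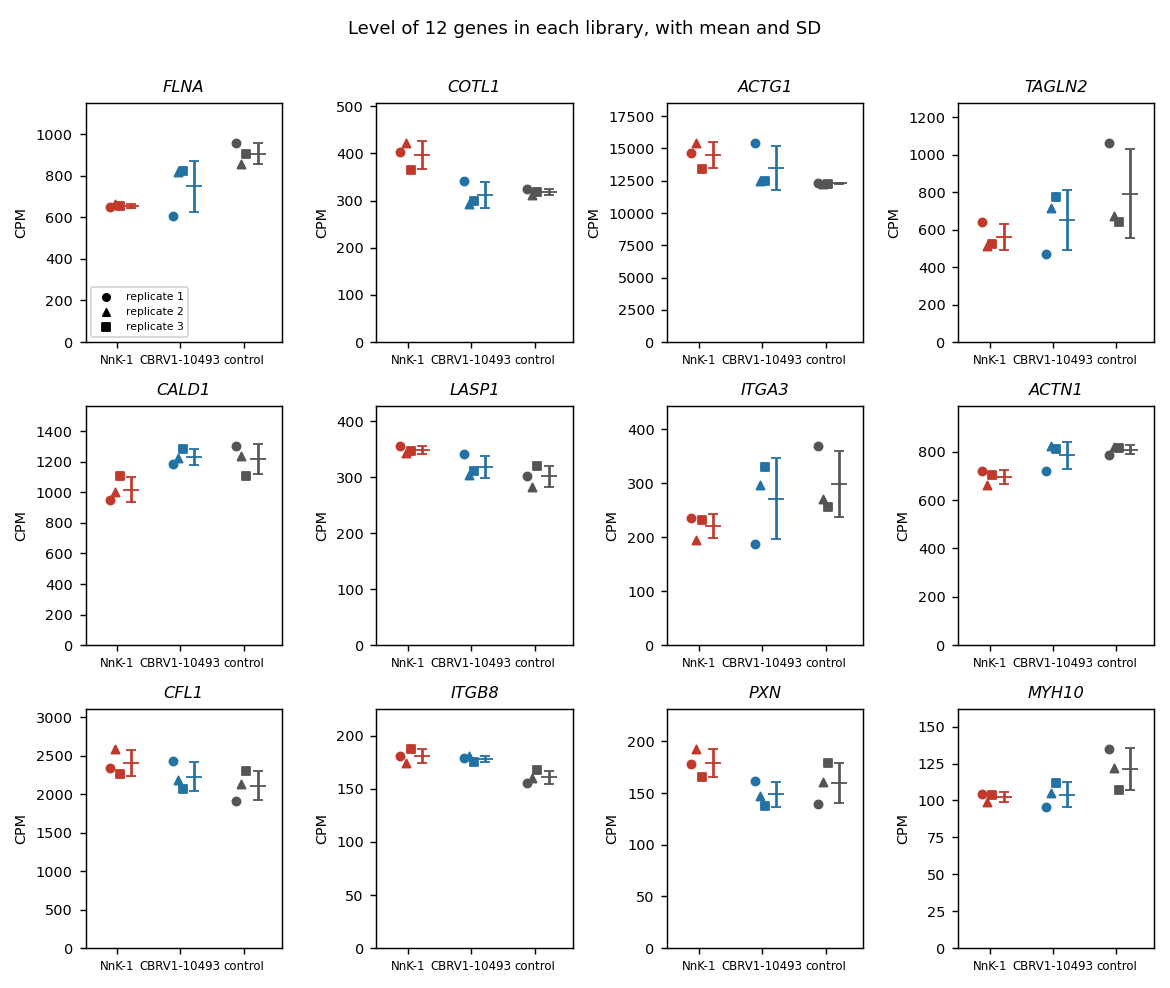
Level of 12 genes in each library in CPM, with the mean and SD of each group of 3; symbols mark the replicate number. FLNA lies between 648 and 666 with NnK-1 and between 856 and 959 in control, and CBRV1-10493 replicate 1 (blue circle) stands away from the other CBRV1-10493 libraries in FLNA, ACTG1, ITGA3, TAGLN2 and ACTN1.

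The second comparison set CBRV1-10493 against the same control libraries, so its values and those of NnK-1 are not independent. Again no gene of the 53, and no gene of the 13676 (0.0%), passed the adjusted threshold; the smallest adjusted p was 1.00 in edgeR's quasi-likelihood test. At an unadjusted p under 0.05, 0 of the 53 were higher, against 1.34% of all tested genes, and 1 was lower (1.89%), against 1.55%. The groups did not overlap for 7 of the 53 (13.2%), 3 higher and 4 lower, where 8.88% of all tested genes did not. The median log2 fold change was -0.0075 over the 53 and 0.0027 over all tested genes.

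The lower gene was FLNA, whose level in every library is given above. Its log2 fold change with CBRV1-10493 was -0.26, 95% interval -0.47 to -0.051, unadjusted p = 0.0176, adjusted p = 1.00; without CBRV1-10493 replicate 1 it was -0.13 (unadjusted p = 0.128) and without control replicate 1 -0.22 (unadjusted p = 0.0605). MYH10, the heavy chain of myosin IIB, stood at 95.3, 105 and 112 CPM with CBRV1-10493 and 135, 122 and 107 in control (log2 fold change -0.21, 95% interval -0.43 to 0.018, unadjusted p = 0.0689, adjusted p = 1.00; -0.13 without control replicate 1). These groups overlapped. PTK2, the kinase FAK, stood at 51.1, 43.1 and 45.6 CPM with CBRV1-10493 and 55.5, 55.6 and 52.8 in control, without overlap (log2 fold change -0.21, 95% interval -0.48 to 0.047, unadjusted p = 0.102, adjusted p = 1.00).

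On the higher side, the 3 smallest p values belonged to ITGB8, ACTG1 and ITGA2. ITGB8 had a log2 fold change of 0.16 (95% interval -0.024 to 0.35) and ACTG1 of 0.15 (95% interval -0.027 to 0.32), or 0.030 for ACTG1 without CBRV1-10493 replicate 1. The collagen receptor chain ITGA2 stood at 10.4, 11.8 and 13.5 CPM with CBRV1-10493 and 8.69, 9.69 and 9.27 in control, without overlap (log2 fold change 0.38, 95% interval -0.080 to 0.84, unadjusted p = 0.1, adjusted p = 1.00). COTL1 (-0.020), CFL1 (0.090), ITGA3 (-0.12), ITGB1 (0.018), VCL (0.091), ACTN4 (0.022), MYH9 (0.047), TPM4 (0.060) and RAC1 (-0.0075) had log2 fold changes whose intervals all included 0. That of ITGA3 turned to 0.081 without CBRV1-10493 replicate 1 and to 0.055 without control replicate 1. The number of genes at an unadjusted p under 0.05 was 2 without control replicate 2, where 2.54% of all tested genes were at that level. It was 2 without CBRV1-10493 replicate 2 (2.98% of all tested genes) and 3 without control replicate 3 (2.91%). Without CBRV1-10493 replicate 3 it was 4 (3.74%), and with all libraries it was 1 (2.89%).

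**Figure D4:**
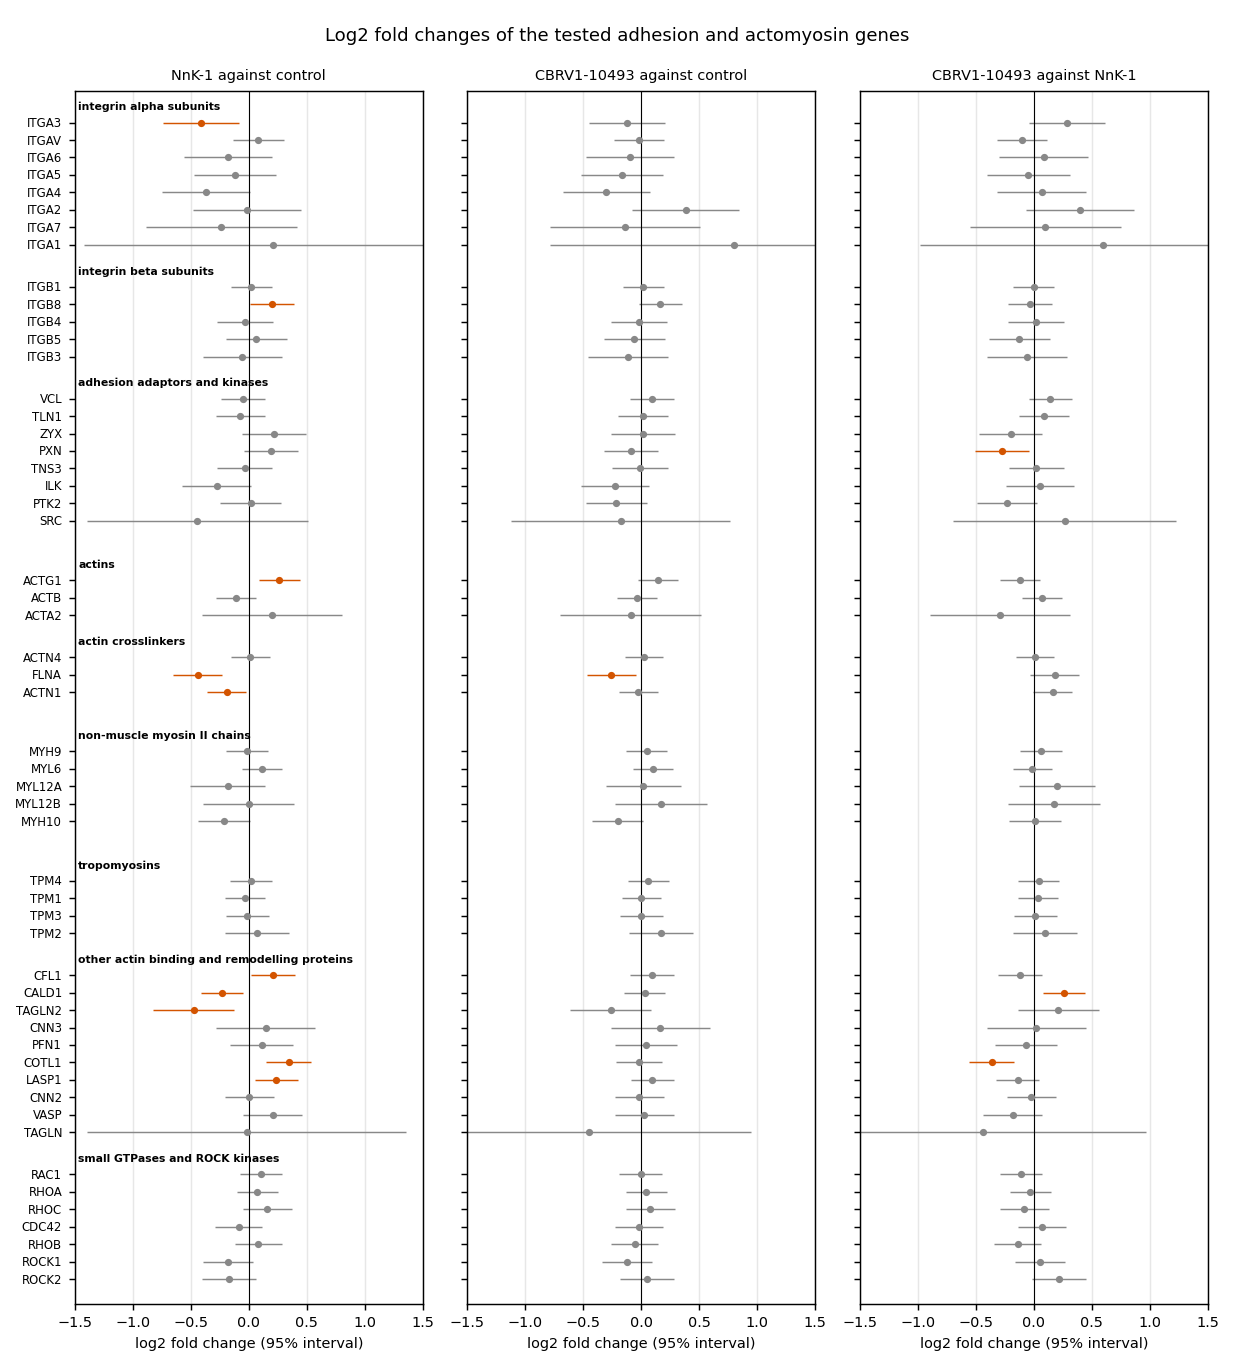
Log2 fold change with its 95% interval for each of the 53 tested genes in the 3 comparisons, grouped by role; orange marks an unadjusted p under 0.05 and intervals that leave the frame are clipped at 1.5. There are 10 orange genes for NnK-1 against control, 1 for CBRV1-10493 against control and 3 for CBRV1-10493 against NnK-1, and none passed the adjusted threshold.

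CBRV1-10493 replicate 1 stood apart in these genes as well. Of the 10 genes at an unadjusted p under 0.05 with NnK-1, this library lay beyond both other CBRV1-10493 libraries on the side of the NnK-1 difference for 9, the exception being ITGB8. Over all 1001 tested genes at that level with NnK-1, it did so for 692 (69.1%). This pattern was described after the values were seen. In FLNA, ITGA3 and TAGLN2 it was the lowest of all 9 libraries, and in ACTG1 the highest.

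CBRV1-10493 was then compared directly with NnK-1, the only pair of peptides, with dose and time matched. No gene of the 53, and none of the 13676 (0.0%), passed the adjusted threshold, the smallest adjusted p being 0.994 in edgeR's quasi-likelihood test. At an unadjusted p under 0.05, 1 of the 53 was higher with CBRV1-10493 (1.89%) and 2 were lower (3.77%), against 1.96% and 2.35% of all tested genes. The groups did not overlap for 8 of the 53 (15.1%), 5 higher and 3 lower, against 8.88% of all tested genes. The median log2 fold change was 0.014 over the 53 and 0.0011 over all tested genes.

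COTL1 gave the smallest p of the 53 here, at 311 ± 27.2 CPM with CBRV1-10493 and 397 ± 29.6 with NnK-1 (SD, n = 3 each; log2 fold change -0.36, 95% interval -0.56 to -0.17, unadjusted p = 0.000978, adjusted p = 0.994). PXN, the adaptor paxillin, stood at 162, 147 and 137 CPM with CBRV1-10493 and 178, 193 and 166 with NnK-1, without overlap (log2 fold change -0.28, 95% interval -0.51 to -0.045, unadjusted p = 0.0217, adjusted p = 0.994). CALD1 stood at 1183, 1223 and 1285 CPM with CBRV1-10493 and 948, 1000.2 and 1106 with NnK-1, also without overlap (log2 fold change 0.26, 95% interval 0.082 to 0.44, unadjusted p = 0.00646, adjusted p = 0.994). The next in p were ACTN1 (0.16, 95% interval -0.0042 to 0.33), ROCK2 (0.22, 95% interval -0.015 to 0.45) and PTK2 (-0.23, 95% interval -0.49 to 0.031), the values being log2 fold changes. COTL1 and CALD1 stayed at an unadjusted p under 0.05 with each library left out in turn, and PXN did not. Here too the share of all tested genes that stayed was not counted.

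For the other genes described above with NnK-1, the interval of the difference between the peptides was as follows. It ran from -0.03 to 0.39 on the log2 scale for FLNA (log2 fold change 0.18), and was 0.29 (95% interval -0.041 to 0.62) for ITGA3, -0.12 (95% interval -0.29 to 0.055) for ACTG1 and -0.12 (95% interval -0.31 to 0.068) for CFL1. TAGLN2 had 0.21 (95% interval -0.14 to 0.56), ITGB8 -0.034 (95% interval -0.22 to 0.15) and LASP1 -0.14 (95% interval -0.33 to 0.045), the LASP1 values not overlapping between the peptides. The intervals of ITGB1 (-0.0036, 95% interval -0.18 to 0.18), ACTN4 (0.0089, 95% interval -0.16 to 0.18), MYH9 (0.062, 95% interval -0.12 to 0.24), TPM4 (0.039, 95% interval -0.14 to 0.22), VCL (0.14, 95% interval -0.045 to 0.33) and RAC1 (-0.11, 95% interval -0.29 to 0.073) also included 0. Without NnK-1 replicate 2 the values were -0.056 for ACTG1, -0.047 for CFL1, -0.047 for RAC1 and 0.088 for VCL. Without CBRV1-10493 replicate 3 they were 0.11 for FLNA, 0.13 for ITGA3, -0.063 for ACTG1, -0.068 for CFL1 and -0.069 for RAC1. Without CBRV1-10493 replicate 2 they were 0.11 for FLNA and -0.065 for ACTG1, and without NnK-1 replicate 1 RAC1 had -0.18.

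Leaving out CBRV1-10493 replicate 1 raised the number of genes at an unadjusted p under 0.05 between the peptides to 13, of which 5 were higher and 8 lower with CBRV1-10493, where 7.18% of all tested genes were at that level; with all libraries it was 3, and 4.31% of all tested genes. In that fit COTL1 had a log2 fold change of -0.44, ITGA3 of 0.49, FLNA of 0.31, ACTG1 of -0.23, CFL1 of -0.20 and the adhesion protein ZYX of -0.34, and the smallest adjusted p of the 53 genes was 0.402. Without NnK-1 replicate 1 the number was 9 (9.02% of all tested genes), and without NnK-1 replicate 3 it was 5 (4.59%). It was 2 without NnK-1 replicate 2 (3.21%) and 2 without CBRV1-10493 replicate 2 (3.05%).

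A further 93 genes of the same structures, among them other integrin subunits, kindlins, parvins, formins and the Arp2/3 complex, were also listed. They too were chosen with earlier results of these data known, and 84 were tested. With NnK-1, 6 were higher at an unadjusted p under 0.05 (7.14%) and 5 lower (5.95%), against 3.76% and 3.56% of all tested genes. With CBRV1-10493, 1 was higher (1.19%) and 0 lower, against 1.34% and 1.55%. Between the peptides, 3 were higher (3.57%) and 3 lower (3.57%) with CBRV1-10493, against 1.96% and 2.35%, and no gene of the 84 passed the adjusted threshold in any comparison. With NnK-1, SSH1, a phosphatase that activates cofilin, stood at 15.3 ± 1.78 CPM against 21.3 ± 1.55 in control (log2 fold change -0.46, 95% interval -0.82 to -0.098, unadjusted p = 0.0153, adjusted p = 0.62), and ARPC3, a subunit of the Arp2/3 complex, at 100.1 ± 3.68 against 124 ± 14.3 (-0.28, 95% interval -0.51 to -0.059, unadjusted p = 0.0158, adjusted p = 0.62). Higher were the small GTPase RHOG (0.38, 95% interval 0.064 to 0.70, unadjusted p = 0.0208, adjusted p = 0.62; 0.25 without NnK-1 replicate 2) and the vinculin-binding SORBS3 (0.42, 95% interval 0.052 to 0.79, unadjusted p = 0.0275, adjusted p = 0.637). None of these 4 stayed at an unadjusted p under 0.05 with each library left out in turn.

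With CBRV1-10493 the integrin subunit ITGA9 stood at 5.47 ± 0.928 CPM against 2.46 ± 1.28 in control (log2 fold change 1.15, 95% interval 0.32 to 1.99, unadjusted p = 0.0093, adjusted p = 1.00). With NnK-1 it stood at 4.43 ± 1.12 CPM (SD, n = 3 each), a log2 fold change against control of 0.86 (95% interval 0.023 to 1.70, unadjusted p = 0.0445, adjusted p = 0.676), and for CBRV1-10493 against NnK-1 it was 0.29 (95% interval -0.52 to 1.1). DOCK1, an exchange factor for Rac1, had 0.21 (95% interval -0.032 to 0.46), and the adhesion proteins KANK1 and GIT1 had -0.29 (95% interval -0.59 to 0.0099) and -0.24 (95% interval -0.55 to 0.060). Without CBRV1-10493 replicate 1, DOCK1 had 0.14 and GIT1 -0.15. For NnK-1 against control GIT1 had -0.31 (95% interval -0.62 to -0.0065), without overlap between the groups, DOCK1 -0.048 and KANK1 0.065. Between the peptides, CBRV1-10493 against NnK-1, PPP1R12A, the targeting subunit of myosin phosphatase, had a log2 fold change of 0.21 (95% interval 0.015 to 0.41) and ELMO1, a partner of DOCK1, of 1.08 (95% interval 0.066 to 2.09). ELMO1 was scarce, at 1.35 ± 0.302 CPM with NnK-1 and 3.13 ± 0.250 in control (SD, n = 3 each). Its log2 fold change for NnK-1 against control was -1.18 (95% interval -2.19 to -0.18). The CBRV1-10493 libraries stood at 1.74, 4.01 and 2.89 CPM, on both sides of the control values. Between the peptides, KANK1 had -0.35 (95% interval -0.65 to -0.054) and ezrin (EZR) -0.24 (95% interval -0.47 to -0.016), or -0.13 for EZR without NnK-1 replicate 2 (unadjusted p = 0.247). None of these 4 stayed at an unadjusted p under 0.05 with each library left out in turn.

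Spread within groups was set against other genes of similar level for the 38 of the 56 genes with at least 100 CPM. Over these 38, the median SD of log2 CPM between replicates was 0.11, against 0.119 over the 2151 tested genes at that level. The steadiest included ITGB8 (SD 0.0484), TPM1 (0.0728) and ITGB1 (0.0728). A few varied far more: the calponin CNN3 had an SD of 0.413, higher than 99.7% of genes at that level, the myosin light chains MYL12B and MYL12A 0.38 and 0.297, TAGLN2 0.328 and ITGA3 0.3.

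CNN3 stood at 1010.5, 423 and 546 CPM in the NnK-1 libraries, 585, 644 and 785 in the CBRV1-10493 libraries and 742, 588 and 487 in the control libraries. The highest and the lowest of all 9 libraries were both NnK-1 libraries. MYL12B stood at 470.0, 215 and 325 CPM in the NnK-1 libraries, 319.9, 367 and 456 in the CBRV1-10493 libraries and 427, 313 and 286 in the control libraries. As for CNN3, NnK-1 replicate 1 was the highest and NnK-1 replicate 2 the lowest of the 9. MYL12A had the same highest and lowest library, at 507, 254 and 349.6 CPM with NnK-1. For these genes the differences between groups were smaller than those between replicates of 1 group, with log2 fold changes for NnK-1 against control of 0.14 (95% interval -0.28 to 0.57) for CNN3, -0.0018 (95% interval -0.40 to 0.39) for MYL12B and -0.18 (95% interval -0.51 to 0.14) for MYL12A.

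**Figure D5:**
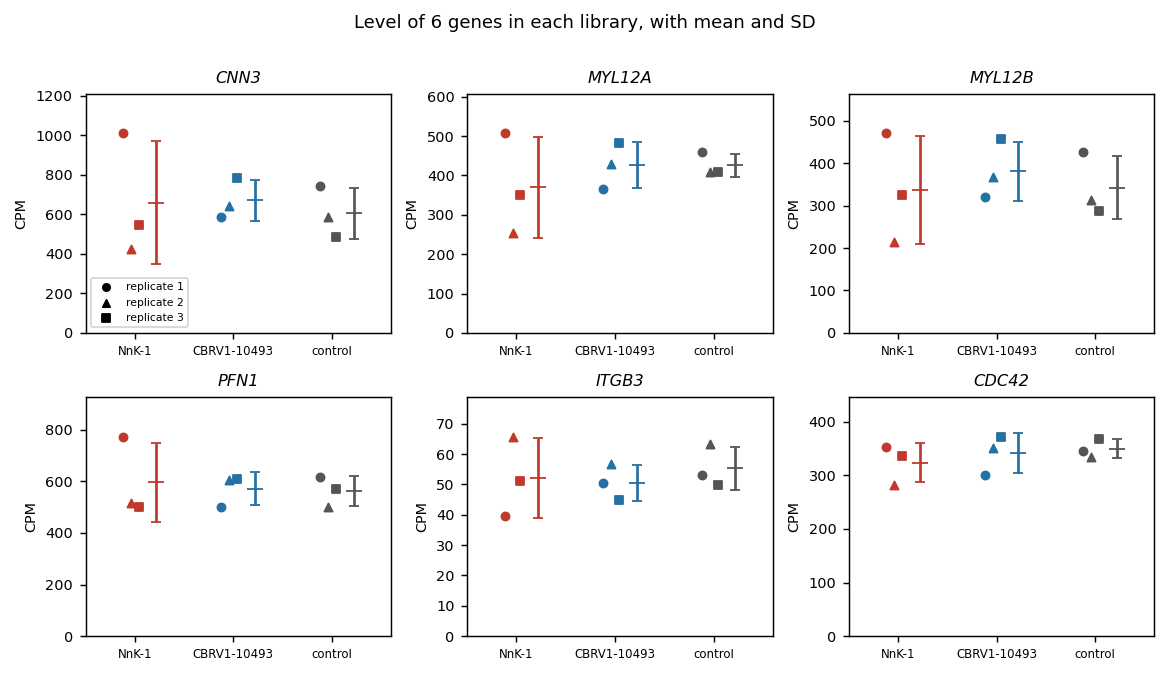
Level of 6 genes in each library in CPM, with the mean and SD of each group of 3; symbols mark the replicate number. CNN3, MYL12A and MYL12B are highest in NnK-1 replicate 1 and lowest in NnK-1 replicate 2, at 1010.5 and 423 CPM for CNN3.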

How the data were processed

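The authors deposited 1 file per library with raw, unnormalized counts of reads for each gene symbol. The library kit was Lexogen QuantSeq, per the labels' protocols. Bowtie2, bedtools and the build hg19 are named, per the submitters' processing notes; versions, the annotation and the counting options are not given in the sources used here. Groups were taken from the labels. Each library was counted as 1 sample. Every pair of libraries differed beyond sampling noise (chi-square per degree of freedom 6.07 to 28.6). That check cannot tell separate cultures from separate preparations of 1 culture.

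Of 25737 entries, 1561 shared 286 symbols and were summed, which left 24462; 0 entries had no gene name. CPM is the count over the library total times 1000000, with totals of 11203094 to 13491075; the limit given for a count of 0 uses 3 counts. Genes were kept by filterByExpr at its defaults (minimum count 10, minimum total 15), TMM-scaled and tested by quasi-likelihood in edgeR 4.0.16 (R 4.3.3), all 9 libraries in 1 fit, two-sided, with Benjamini-Hochberg adjustment over 13676 genes and a threshold of 0.05. The common biological coefficient of variation was 0.169. Principal components were taken on log2 CPM. The 56 genes, the other lists and the tests were chosen with earlier results of these data known. Named in each comparison were FLNA, COTL1, every tested gene of the 56 with an unadjusted p under 0.05, the 3 with the smallest p in each direction, the most abundant gene of each role and, of the 93 other genes, the 2 with the smallest p in each direction. Genes whose replicates varied most were chosen after their values were seen. Alternatives were other scalings, other filters, the 6 libraries compared, a replicate block, a threshold of 0.01, DESeq2 1.42.0, limma-voom (limma 3.58.1) and each library left out; a fit without both libraries that lay apart was added after seeing the data.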

Additional observations from a re-analysis of the deposited data

How the results depend on the processing

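With 3 libraries a group, log2 differences under about 0.22 in these genes lay within the typical interval. Of the 59 fold changes named by the rule above, 45 kept their sign under every alternative that gave a value (19, or 18 for ELMO1, which the filter at 5 CPM left out). Fold changes given outside that rule, such as those of CNN3 and MYL12B with NnK-1, were not in this count. For the 59, 39 of 1120 alternative values changed sign, and 3 passed an adjusted p of 0.05. Those were FLNA, ITGA3 and TAGLN2 for NnK-1 against control without a filter on low counts (FLNA -0.44, adjusted p = 0.00188; over all its alternatives 0.00188 to 0.922), where 3 of the 56 genes and 74 of 18756 genes passed. In that fit edgeR's prior degrees of freedom for the spread were infinite, so every gene took the common trend, against 13.6 in the fit reported. It called 6 genes for CBRV1-10493 against control and 1 for CBRV1-10493 against NnK-1, where DESeq2 called 3 genes for NnK-1 against control and 0 for the other comparisons, none of them among the 56.

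The median log2 fold change of the tested genes for NnK-1 against control was -0.029 with upper-quartile factors and -0.039 with no scaling beyond the library total, where that of all genes was -0.014 and -0.023; with each library left out it ran from -0.034 to 0.019. For CBRV1-10493 against control it ran from -0.018 to 0.015 with each library left out, and was 0.015 without both libraries that lay apart. Signs changed for NnK-1 against control in ACTN4 with upper-quartile factors (-0.0035), ACTN4 (-0.013), ITGB1 (-0.0057) and TPM4 (-0.0082) with no further scaling, and ITGB1 (-0.0034), TPM4 (-0.043) and VCL (0.0032) without both libraries that lay apart. For CBRV1-10493 against control they changed in ITGA3 (0.081) and ITGB1 (-0.0051) without both, and for CBRV1-10493 against NnK-1 in ITGB1 with upper-quartile factors (0.016) and no further scaling (0.0091). The cause was not tested. With each library left out in turn, the ranges for NnK-1 against control were -0.075 to 0.096 for ACTN4, -0.018 to 0.066 for ITGB1, -0.043 to 0.10 for TPM4, -0.067 to 0.053 for MYH9 and -0.088 to 0.0026 for VCL. For CBRV1-10493 against control they were -0.066 to 0.10 for ACTN4, -0.28 to 0.081 for ITGA3, -0.022 to 0.058 for ITGB1, -0.053 to 0.032 for RAC1 and -0.10 to 0.024 for COTL1. For CBRV1-10493 against NnK-1 they were -0.048 to 0.023 for ITGB1, -0.016 to 0.037 for ACTN4, -0.0077 to 0.11 for MYH9 and -0.045 to 0.10 for TPM4.

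Same-numbered libraries correlated between -0.057 and 0.13 in their deviations from the group means. Among them only control replicate 1 with NnK-1 replicate 1 exceeded 0.1. With 3 libraries a group this check cannot exclude a pairing by replicate number. Fitted with a replicate block, 0 of the 56 genes and 0 genes in all passed in any of the 3 comparisons, the median log2 fold change of the tested genes for NnK-1 against control was -0.014, and FLNA stood at -0.44 (adjusted p = 0.651).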
